A study of Mus musculus with 2 samples.

Results

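The miR-15 and miR-16 genes come as 2 pairs of neighbouring miRNA hairpins: Mir15a with Mir16-1, and Mir15b with Mir16-2. These 4 genes, taken by name out of 1973 annotated miRNA genes, were examined in small RNA sequencing of the forebrain of B6NCrl mouse embryos at embryonic day 14.5. All 4 were found in the count tables. There was 1 group with 2 libraries, which the labels number as biological replicates 1 and 2 and describe as single forebrains collected on different days. The labels name no treatment, genotype or other tissue, and they give a pooled sex and the same donor for both libraries, so the SDs below measure the spread between these 2 samples, part of which could be technical.

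A miRNA hairpin is cut from a primary transcript and then into a short duplex, whose 5p or 3p arm is loaded into Argonaute and guides it to messenger RNAs. Recognition rests mainly on the seed, bases 2 to 8 of the mature miRNA. miRNAs of the miR-15 family share a seed and are known as brakes on the cell cycle, with cyclins and the survival gene Bcl2 among their classic targets. The Mir15a and Mir16-1 pair is best known for its loss in chronic lymphocytic leukaemia.

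The mature 5p arms are shown first, since the seed they share defines the family. The capitals mark the seed, and the sequences are those of RefSeq on GRCm38.p6, in which all 4 genes were matched by symbol.
miR-15a-5p: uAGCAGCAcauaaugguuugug
miR-15b-5p: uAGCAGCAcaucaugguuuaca
miR-16-5p: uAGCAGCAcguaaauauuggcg
The seed AGCAGCA was the same in all of them. Counted from 1 at the 5′ end, miR-15a-5p and miR-15b-5p were identical at 18 of 22 positions and differed by A12C, G20A, U21C and G22A, with the base of miR-15a-5p first. miR-16-5p was identical to miR-15a-5p at 16 of 22 positions and to miR-15b-5p at 14 of 22, and in both cases the first difference was at position 10, after the seed.

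The 3p arms were less alike, and their seeds differ from that of the 5p arms. They are shown because only in this arm do the mature sequences of the 2 miR-16 genes differ. The miR-15 genes differ in their 5p arms as well.
miR-15a-3p: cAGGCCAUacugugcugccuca
miR-15b-3p: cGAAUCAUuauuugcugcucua
miR-16-1-3p: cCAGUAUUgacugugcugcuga
miR-16-2-3p: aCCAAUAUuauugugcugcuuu
The 2 miR-16 3p arms were identical at 12 of 22 positions, and the 2 miR-15 3p arms also at 12 of 22.

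The miR-16 hairpins are shown whole, because their common stretch limits what the gene counts can hold. Capitals mark the longest run that both share, of 23 nt.
Mir16-1: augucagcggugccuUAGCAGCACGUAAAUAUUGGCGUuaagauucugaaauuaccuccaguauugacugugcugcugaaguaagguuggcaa
Mir16-2: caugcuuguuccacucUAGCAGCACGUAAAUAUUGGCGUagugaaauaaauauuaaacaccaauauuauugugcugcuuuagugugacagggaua
The whole 22 nt of miR-16-5p lies inside this run. A read that stays within the run matches both loci, and reads that matched several places stand in the tables as 1 total outside the genes. The counts given below for Mir16-1 and Mir16-2 are therefore counts of reads placed at 1 locus only, and the level of miR-16-5p itself cannot be read from them. No such run was found for the miR-15 genes: the longest stretch of either arm of miR-15a in another listed hairpin was 11 nt, and that of the Mir15b hairpin was also 11 nt. The tables do not separate the 5p from the 3p arm of a gene.

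On mm10, in GENCODE M21, Mir15a (ENSMUSG00000093007.1) lies at chr14:61632027-61632110 and Mir16-1 (ENSMUSG00000092995.1) at chr14:61631880-61631972, both on the minus strand and 54 nt apart. Both lie within Dleu2, a long non-coding RNA gene on the same strand. Mir15a is intronic in all 8 Dleu2 transcripts that span it, and Mir16-1 overlaps an exon in 1 of 8. Mir15b (ENSMUSG00000065580.1) lies at chr3:69009772-69009835 and Mir16-2 (ENSMUSG00000065606.1) at chr3:69009902-69009996, both on the plus strand and 66 nt apart. They are intronic in all 5 spanning transcripts of Smc4, the gene of a condensin subunit that compacts chromosomes for mitosis. The host genes themselves were not measured in these tables.

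The libraries held 18598385 reads in replicate 1 and 20638071 in replicate 2, of which 7080317 and 7946585 were counted on the strand of a miRNA gene. Levels are given as CPM, counts per 1000000 of these miRNA counts. Intervals are 95% exact Poisson intervals, which cover counting error only, since reads without molecular identifiers are not independent molecules. Genes with at least 10 counts in each library were taken as detected, which held for 399 genes. Of the marker genes used to check the tissue, 6 of 7 of the neuronal list were detected, with sums of 10844 and 10492 CPM in replicates 1 and 2, and 3 of 3 of the measured neural progenitor list, with 4045 and 3348 CPM. Mir137 held most of the neuronal sum and Mir92b most of the progenitor sum. The neuronal gene not detected was Mir124a-3, with 3 and 4 counts. These are reads placed at 1 locus only, so the counts of single Mir124a genes do not give the level of miR-124. Mir9-2 and Mir9-3 of the progenitor list share every listed arm with another locus, so that sum may be partial too. The most abundant gene of all, Mir99a, held 28.4% and 31.8% of the counts in replicates 1 and 2.

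All 4 genes were well above the detection limit in both libraries, and the Dleu2 pair was the more abundant. Together they held 1.91% of the miRNA counts in replicate 1 and 1.49% in replicate 2, or 1.70% ± 0.300 (SD, n = 2). The pair of Mir15a and Mir16-1 made up 85.4% of the counts of the 4 genes in replicate 1 and 83.7% in replicate 2. For the miR-16 genes these shares rest on reads placed at 1 locus only. None of the 4 had a count on the opposite strand in either library.

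**Figure D1:**
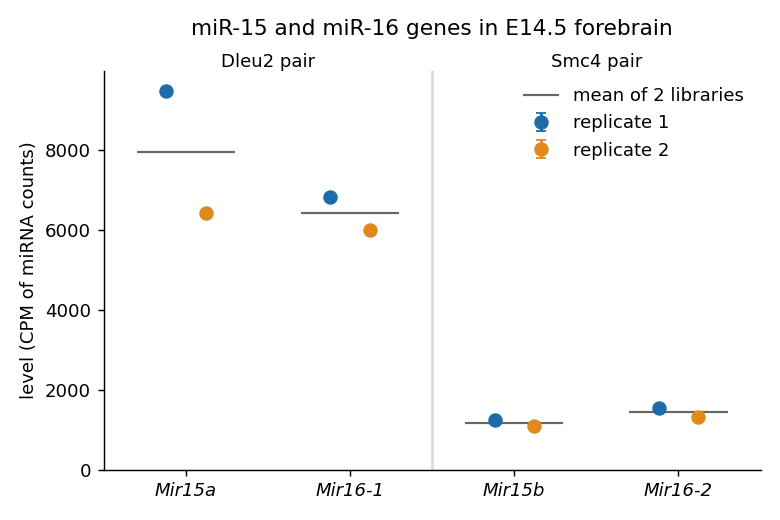
Level of each gene in CPM of the miRNA counts (vertical axis, from 0) in replicate 1 (blue) and replicate 2 (orange), with the mean of the 2 libraries as a line; 95% Poisson counting intervals are smaller than the points. Both genes of the Dleu2 pair sit at 6016 CPM or more and both genes of the Smc4 pair at 1546 CPM or less, and replicate 1 is higher for each of the 4 genes.

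Mir15a, the source of miR-15a, had 67157 counts in replicate 1 and 51112 in replicate 2. That was 9485 CPM (interval 9413 to 9557) and 6432 CPM (interval 6376 to 6488), with a mean of 7958 ± 2159 CPM (SD, n = 2). It was the most abundant of the 4 genes in both libraries and stood 21st of the 399 detected genes by mean CPM, 18th in replicate 1 and 26th in replicate 2.

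Mir16-1, its neighbour, had 48397 and 47805 counts in replicates 1 and 2. Its level was 6835 CPM (interval 6775 to 6897) and 6016 CPM (interval 5962 to 6070), with a mean of 6426 ± 580 CPM (SD, n = 2). It stood 28th in both libraries. Within each library Mir15a was above Mir16-1. Across the libraries, the level of Mir15a in replicate 2 lay between the values of Mir16-1, so by mean and SD the levels of these neighbours overlapped.

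Mir16-2, the second locus of miR-16, had 10945 and 10541 counts, which was 1546 CPM (interval 1517 to 1575) in replicate 1 and 1326 CPM (interval 1301 to 1352) in replicate 2. Its mean was 1436 ± 155 CPM (SD, n = 2), and it stood 76th. Mir15b, its neighbour and the only source of miR-15b, had 8803 and 8728 counts. That was 1243 CPM (interval 1217 to 1270) and 1098 CPM (interval 1075 to 1122), with a mean of 1171 ± 103 CPM (SD, n = 2), and it stood 81st. The lower value of Mir16-2 exceeded the higher value of Mir15b.

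Levels were also set per 100 nt of hairpin, with lengths of 84, 93, 64 and 95 nt for Mir15a, Mir16-1, Mir15b and Mir16-2. The listed mature arms of these genes are all 22 nt long, so their counts need not rise with hairpin length. This scale is therefore a description and not a correction. Mir15a stood at 11292 and 7657 CPM in replicates 1 and 2. Mir16-1 stood at 7350 and 6469 CPM on this scale. Mir15b stood at 1943 and 1716 CPM, and Mir16-2 at 1627 and 1396 CPM. The Dleu2 genes were above the Smc4 genes on either scale. The order within the Smc4 pair turned, with Mir15b above Mir16-2 in each library per length and below it by counts. That turn follows from the division by length, 64 against 95 nt.

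Genes of a pair are thought to be cut from 1 primary transcript, so the ratio of their counts was taken in each library, with an exact (Clopper-Pearson) 95% interval for counting error. Mir15a had 1.39 counts for each count of Mir16-1 in replicate 1 (interval 1.37 to 1.40) and 1.07 in replicate 2 (interval 1.06 to 1.08). The ratio was thus 1.30-fold higher in replicate 1. Mir15b had 0.804 counts for each count of Mir16-2 in replicate 1 (interval 0.782 to 0.827) and 0.828 in replicate 2 (interval 0.805 to 0.852), and these intervals overlap. Fisher's exact test (two-sided, adjusted over the 4 ratios computed) gave an adjusted p of 4.37e-196 for the first ratio and of 0.154 for the second. It takes account of counting error alone and compares 2 libraries, not groups of embryos.

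Between the loci the same contrast appeared. Mir15a had 7.63 times the counts of Mir15b in replicate 1 (interval 7.46 to 7.80) and 5.86 times in replicate 2 (interval 5.72 to 5.99), with an adjusted p of 1.95e-59 in Fisher's exact test. Mir16-1 had 4.42 times the counts of Mir16-2 in replicate 1 (interval 4.33 to 4.51) and 4.54 times in replicate 2 (interval 4.44 to 4.63), with an adjusted p of 0.125. Of the 4 ratios, both that include Mir15a differed between the libraries, and for the 2 that leave it out no difference was detectable at this depth. Per nt of hairpin the ratio of Mir15a to Mir15b was 5.81 and 4.46, and that of Mir16-1 to Mir16-2 was 4.52 and 4.63. Both miR-16 values count reads placed at 1 locus only, so their ratio need not be that of the output of the 2 loci.

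To set the pairs beside others, neighbouring detected genes on 1 strand with a gap of up to 10 kb were listed, a description chosen after the ratios were seen. There were 113 such pairs, and the ratio within them differed between the libraries by a median of 1.14-fold. For Mir15a and Mir16-1 it differed by 1.30-fold, and 29 of the 113 pairs moved more. For Mir15b and Mir16-2 it differed by 1.03-fold, and 98 moved more. Among the 14 pairs with both genes at a mean of 1000 CPM or more, 3 moved more than Mir15a and Mir16-1. The shift of the ratio of Mir15a to Mir16-1 was above the median but within the range of other pairs.

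Both miR-15 and miR-16 pairs had similar levels of uniquely placed counts at their neighbours. The genes of a pair differed by 0.43 log2 units per nt of hairpin for Mir15a and Mir16-1 and by 0.28 for Mir15b and Mir16-2, against a median of 3.04 over the 113 pairs. In 8 and 2 of the 113 pairs, respectively, the difference was smaller. Among the 14 abundant pairs the median was 0.94, with 2 pairs closer than Mir15a and Mir16-1 and 0 closer than Mir15b and Mir16-2. By log2 level not set per nt, which does not rest on hairpin length, the differences were 0.28 and 0.29. The median of this level difference over the 113 pairs was 2.95, with 4 and 5 pairs closer. Among the 14 abundant pairs it was 1.15, with 0 and 1 closer. All of these are differences of uniquely placed counts, which for the miR-16 genes may leave out reads of the shared run. The miR-15 genes have no such run, so the genes of a pair may not be counted alike.

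**Figure D2:**
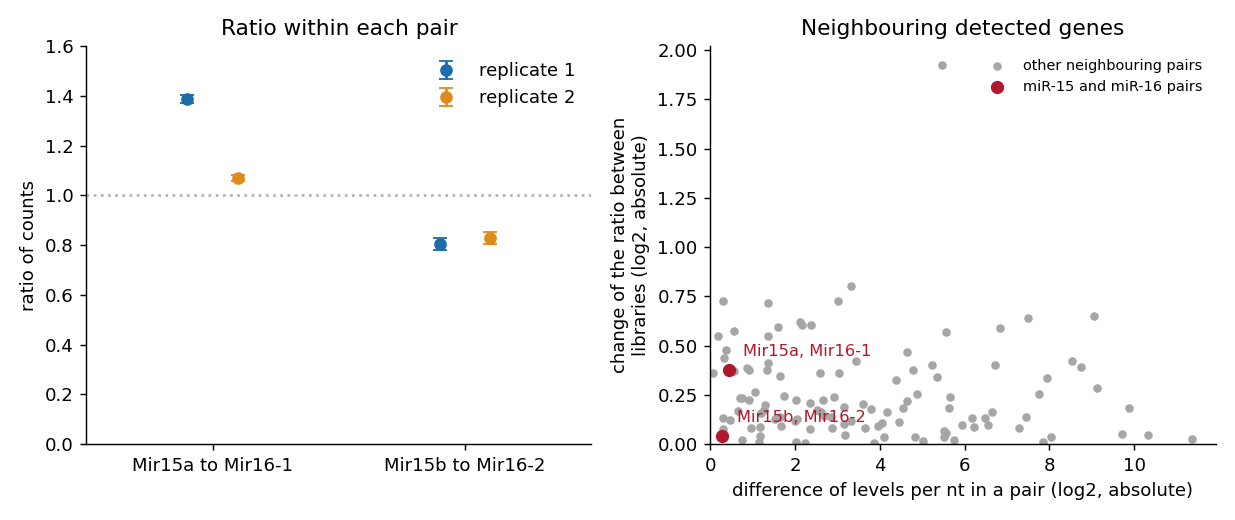
Left, ratio of counts within each pair by library, with exact 95% counting intervals (vertical axis from 0). Right, the 113 pairs of neighbouring detected genes by the absolute difference of their levels per nt (horizontal, log2) and the absolute change of their ratio between the libraries (vertical, log2), with both miR-15 and miR-16 pairs in red. The ratio of Mir15a to Mir16-1 is 1.39 in replicate 1 and 1.07 in replicate 2, and that of Mir15b to Mir16-2 is 0.804 and 0.828. Both red points sit at the left, where neighbours have close levels of uniquely placed counts.

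All 4 genes had lower CPM in replicate 2 than in replicate 1, by less than 2-fold. Mir15a was 1.47-fold higher in replicate 1 (log2 ratio of replicate 2 over 1 of -0.56), Mir16-2 1.17-fold (-0.22), Mir16-1 1.14-fold (-0.18) and Mir15b 1.13-fold (-0.18). In Fisher's exact test of each gene against the remaining miRNA counts, two-sided and Benjamini-Hochberg adjusted over all 1973 genes, 0 of the 4 passed with the minimum of 2-fold, which 0.355% of all genes passed. With no minimum fold, 4 of 4 passed as higher in replicate 1, with adjusted p of 4.19e-86 for Mir16-1, 1.03e-27 for Mir16-2 and 4.83e-15 for Mir15b, and a value too small to be stored for Mir15a. Over all genes 5.83% were called in that direction, and 28.6% of the detected genes.

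Abundance bears on this count, since the test calls smaller differences in genes with more reads. Among the 85 genes at a mean of 1000 CPM or more, to which all 4 belong, 61.2% were called as higher in replicate 1. This comparison group was chosen after the counts were seen. Over the detected genes the replicates lay a median of 1.17-fold apart, and 248 of 399 were higher in replicate 1. Of these 399 genes, 46 (11.5%) differed by more than Mir15a, 207 by more than Mir16-2, 240 by more than Mir16-1 and 245 by more than Mir15b. Mir16-1, Mir16-2 and Mir15b therefore differed by about as much as the typical detected gene, and Mir15a by more than most. This ranking runs over detected genes of any level, and those with few counts carry more counting error. It was not made among the 85 abundant genes, so it does not place Mir15a among genes of like abundance. The members' median log2 ratio was -0.20, beside -0.09 over the detected genes.

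Scaling moves all log2 ratios together, and the call split with it. Under TMM scaling, median-of-ratios scaling, and scaling to totals without Mir99a, the ratios rose by 0.08, 0.11 and 0.07 log2 units, and the share of called genes that were higher in replicate 1 changed from 64.6% to 52.7%, 47.1% and 54.2%. Under each of these scalings 4 of 4 members remained higher in replicate 1 and past the adjusted threshold with no minimum fold. Mir15a stood at -0.48, -0.45 and -0.49, while Mir16-1 stood at -0.10, -0.07 and -0.11 and Mir15b at -0.10, -0.07 and -0.11. Mir16-2 stood at -0.14, -0.11 and -0.15. The ratios within and between pairs do not depend on this scaling.

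**Figure D3:**
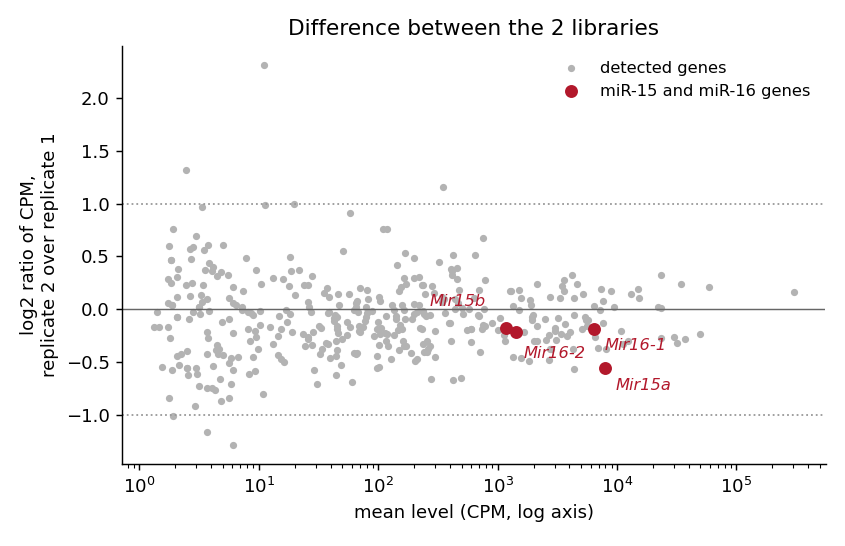
Log2 ratio of CPM, replicate 2 over replicate 1, against the mean level (CPM, log axis) for the 399 detected genes (grey), with the 4 genes in red and dotted lines at a 2-fold difference. Mir15a lies at -0.56, apart from Mir16-1, Mir15b and Mir16-2, which lie between -0.22 and -0.18 among the bulk of the genes.

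Blood cells are a known source of miR-16, so markers of other cell types are given beside these differences. All 3 erythroid markers were detected, and their sum was 406 CPM in replicate 1 and 543 CPM in replicate 2, higher in replicate 2 where the 4 genes were lower. The 4 measured myeloid and lymphoid markers summed to 186 and 191 CPM, with Mir142b at 0 in both. Mir142, also on this list, was not among the measured genes, and the 0 of Mir142b does not give its level. The measured endothelial marker stood at 22103 and 22365 CPM, and the 3 measured smooth muscle and stromal markers summed to 3616 and 4036 CPM. Only 1 of these 3, Mir143, was higher in replicate 2 and it held most of the sum. The 3 measured neural progenitor markers summed to 4045 CPM in replicate 1 and 3348 in replicate 2, with 1 of 3 higher in replicate 2. Mir92b held most of that sum. The neuronal markers summed to 10844 and 10492 CPM, with 4 of 7 higher in replicate 2. Mir137 held most of the neuronal sum, at 7955 and 7274 CPM. All of these marker sums count reads placed at 1 locus only. The part of cell composition in the members' differences was not tested.

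The 4 genes made up most of the measured counts of their seed family, next to Mir322 on the X chromosome. In RefSeq, 11 genes carry the seed AGCAGCA. Of these, 10 were analysed, all but Mir497, and Mir1907 was added by name, though the RefSeq table used here did not match it to this seed. Of the 7 genes besides the 4, 2 were detected. The family sum was 29141 CPM in replicate 1 and 25164 CPM in replicate 2, or 2.72% ± 0.281 of the counts (SD, n = 2). Of it, the miR-15 and miR-16 genes held 65.6% in replicate 1 and 59.1% in replicate 2. These are counts of whole genes, which also hold reads of the 3p arms, and those arms lack this seed. For the miR-16 genes they leave out reads within the shared run. The shares are therefore not shares of the miRNAs that carry the seed.

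The 5p arms of the other expressed family miRNAs are shown to place them beside those above, with the seed in capitals.
miR-322-5p: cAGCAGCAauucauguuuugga
miR-195a-5p: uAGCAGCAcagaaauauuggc
miR-497a-5p: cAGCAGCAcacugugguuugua
miR-195a-5p was closest to miR-16-5p, with 19 of 21 positions identical and the differences G10A and U11G, with the base of miR-16-5p first. miR-322-5p was identical to miR-15a-5p at 15 of 22 positions, with a different first base, U1C, with the base of miR-15a-5p first.

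Mir322 stood at 9315 CPM in replicate 1 and 9425 CPM in replicate 2, with a mean of 9370 ± 77.6 CPM (SD, n = 2). By mean CPM, not set per length, it was above all 4 genes, but its values lay within the range of Mir15a, which was higher in replicate 1 and lower in replicate 2. It did not pass Fisher's exact test between the libraries (1.01-fold, adjusted p = 0.248). Mir195a, which lies beside Mir497, stood below the 4 genes, at 716 and 867 CPM. It was 1.21-fold higher in replicate 2 and passed with no minimum fold (Fisher's exact test, adjusted p = 9.27e-24), in the direction opposite to the 4 genes and in which 3.19% of all genes were called. Of the remaining members, Mir195b, Mir1907, Mir6342 and Mir6419 had 0 counts in both libraries, and Mir6353 had 0 and 1. A gene with 0 counts in a library could still hold 0.424 CPM in replicate 1 or 0.378 CPM in replicate 2, the level of 3 counts.

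The wider group, which includes miR-103, miR-107 and miR-503, has related seeds, shifted or altered by a base, and its members regulate overlapping targets such as cell cycle genes. All 4 of its genes that were listed were detected. Mir107, in an intron of a pantothenate kinase gene, stood at 2232 and 1811 CPM, between the Dleu2 pair and the Smc4 pair, and was 1.23-fold higher in replicate 1 (Fisher's exact test with no minimum fold, adjusted p = 4.96e-72). Mir503, the neighbour of Mir322, stood at 128 and 131 CPM. Mir103-2 stood at 59.5 and 50.2 CPM and Mir103-1 at 9.04 and 8.68 CPM, and these genes share the mature miR-103-3p, so their counts may be partial, like those of the miR-16 genes. Of the wider group, 1 of 4 passed with no minimum fold, beside 9.02% of all genes in either direction, and 0 with the 2-fold minimum.

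**Figure D4:**
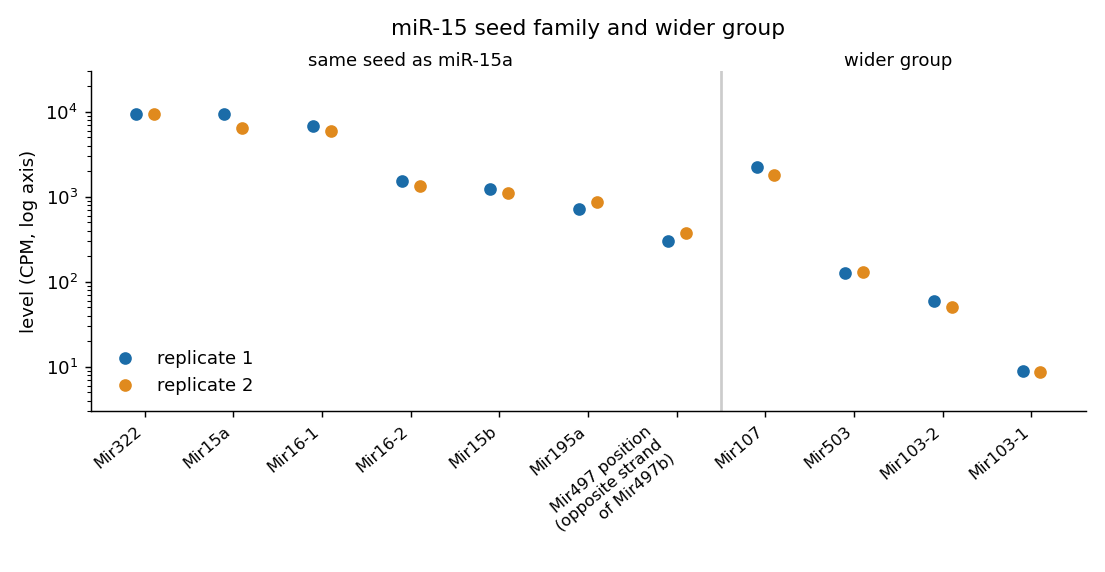
Level in each library (CPM, log axis) of the detected genes with the seed of miR-15a, the position of Mir497 read on the opposite strand of the Mir497b gene model, and the wider group. Mir322, Mir15a and Mir16-1 stand at 6016 CPM or more in both libraries, and Mir195a and the Mir497 position are higher in replicate 2 where the miR-15 and miR-16 genes are lower.

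Since an arm of Mir16-1 and Mir16-2 is the same at both loci, they were set beside the other genes that share an arm with another locus. Of 916 genes matched to RefSeq mature sequences, 53 shared some but not every listed arm with another locus, 34 shared every listed arm and 829 shared none. Of those with some arms shared, 39 (73.6%) were detected, beside 314 (37.9%) with no shared arm and 8 (23.5%) with every arm shared. The median over all genes of a class was 37.1 CPM with some arms shared, 0.471 CPM with none and 0 CPM with every arm. Over the detected genes alone it was 149, 97.1 and 66.4 CPM in the same order. Counts could still be placed at a gene with every listed arm shared: Mir9-3, the highest of these 34, had 4489 and 4415 counts. Mir9-2, of the same class, had 28 and 48. How far sharing lowers the counts of a locus was not tested. The classes differ in which genes they hold, and they rest on listed arms only, of which Mirlet7a-2, for example, had 1. The shares by class therefore do not measure an effect of sharing. Mir16-1 stood second of the 53, below Mir181a-1 at 8859 CPM, and Mir16-2 stood eighth. Both were above the median of the detected genes that share an arm.

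**Figure D5:**
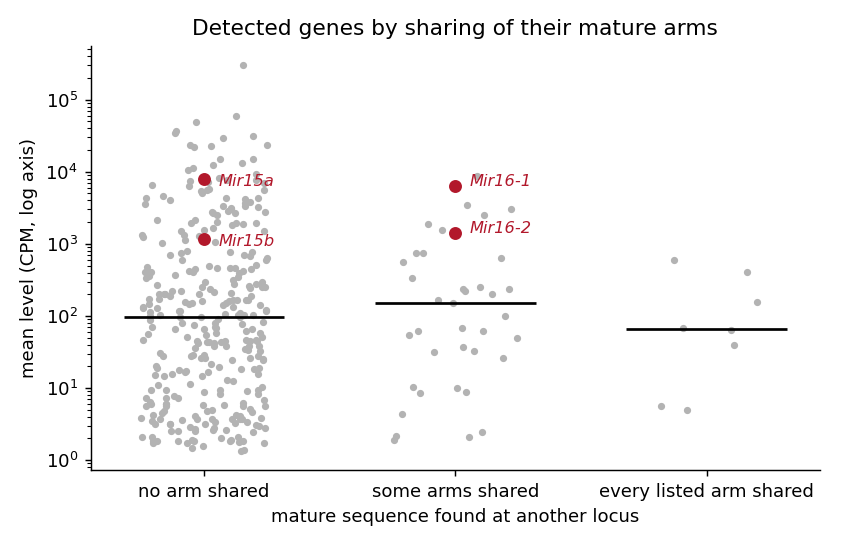
Mean level (CPM, log axis) of the detected genes by whether none, some or every listed mature arm is identical to one at another locus, with the median of each class as a line and the 4 genes in red. Mir16-1 at 6426 CPM and Mir16-2 at 1436 CPM lie in the upper part of the class with some arms shared, where the median is 149 CPM.

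The genes with the most similar values over these 2 libraries were found by Euclidean distance of log2(CPM + 1), leaving out the 4 themselves. For Mir15a they were Mir130b (9197 and 7058 CPM in replicates 1 and 2, distance 0.14), Mir135b (distance 0.30) and Mir137 (distance 0.31). For Mir16-1 they were Mir181d (7145 and 5931 CPM, distance 0.07), Mir342 and Mir135b. For Mir15b they were Mir34c (1223 and 1028 CPM, distance 0.10), Mir467d and Mir433. For Mir16-2 they were Mir431 (1518 and 1510 CPM, distance 0.19), Mir188 and Mir425. With only 2 libraries this ranks levels more than patterns.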

How the data were processed

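Small RNA of 2 forebrain libraries (1 group) was analysed. The authors deposited whole-number read counts per miRNA gene, in 1 table for each library, with a column for both strands together, for the gene's own strand and for the other strand. Per the README deposited with each sample, they rest on mm10 and GENCODE M4. Aligner and counter: not given in the sources used here. Totals of unmapped, multi-mapping and unannotated reads were kept out of library sizes. Multi-mapping reads were 43.3% and 42.2% of all reads.

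Own-strand counts were scaled to CPM over all miRNA genes. Names came from GENCODE M21 (1894 of 1973 IDs matched), and sequences from RefSeq (GRCm38.p6). The libraries were compared with Fisher's exact test (scipy 1.17.1), Benjamini-Hochberg adjusted over all genes, threshold 0.05 and at least 2-fold. The procedure was tested on simulated counts that varied by counting error alone. That could not show how it handles other variation between samples. With 1 library on each side, edgeR has no residual degrees of freedom, so edgeR 4.0.16 and DESeq2 1.42.0 served for scaling factors only. The named genes were the 4 members, the listed family and group genes, and the 3 genes nearest to each member. Members and lists were chosen with earlier results of these data known.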

Additional observations from a re-analysis of the deposited data

Results flagged for a closer look

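Mir497, which has the seed of miR-15a, is not analysed here as a gene of its own. The gene model Mir497b on the other strand had 2 counts on its own strand in each library and 2142 and 2963 counts on the opposite strand, in replicates 1 and 2. That is 338 ± 49.7 CPM (SD, n = 2), against 0.424 and 0.378 CPM for 3 counts, and 1.23-fold higher in replicate 2. With these counts the seed family sum was 27490 CPM, and the miR-15 and miR-16 genes held 64.9% and 58.2% of it.

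Multi-mapping reads made up 42.7% ± 0.822 of all reads (SD, n = 2) and name no gene. They were not used in any comparison, and the share of them that belongs to miR-16-5p cannot be read from the tables.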

How the results depend on the processing

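The summed level of the 4 genes was 16991 CPM, 24252 with totals without Mir99a and 6501 per 1000000 of all reads. Leaving out 1 library gave 14873 to 19110. The count of members that differed between the libraries was 0, and 4 with no minimum fold, while the count over all genes was 7, and 178 with no minimum fold. Per nt of hairpin the mean ratio of Mir15b to Mir16-2 was 1.21 in place of 0.816, that of Mir15a to Mir15b 5.14 in place of 6.74, and that of Mir16-1 to Mir16-2 4.57 in place of 4.48. The seed family sum was 27152 CPM, and 19291 without genes whose mature sequence occurs at more than 1 locus, which are Mir16-1 and Mir16-2 here. The opposite-strand sum and the members' count with no minimum fold were chosen after the data were seen. Differences between the libraries cannot be computed with 1 library left out. No paired analysis was possible because the libraries form 1 group. With 2 libraries, every SD is a coarse estimate.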
